A study of Homo sapiens with 12 samples.

Results

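The 10 genes described here encode subunits of AP-1 and close relatives: FOS, FOSB, FOSL1, FOSL2, JUN, JUNB, JUND, ATF3, MAFF and BATF3. They were taken by gene name from a table of 58735 genes, and each name had a row of its own. Bulk RNA sequencing covered 12 libraries in 4 groups of 3, from KYSE180 and KYSE150, which are established lines of human oesophageal squamous cell carcinoma. KYSE180 was sampled as native control cells, labelled WT, and with overexpression of CDCA7, which recruits the chromatin remodeller HELLS to DNA. KYSE150 was sampled as native control cells, also labelled WT, and with a hairpin RNA directed at CDCA7 (shCDCA7). Both lines grew in RPMI-1640 with 10% fetal bovine serum, and cells of every group were detached with trypsin and put on ice before RNA extraction. The controls are native cells, so a change of CDCA7 cannot be told apart here from the effect of carrying or receiving a construct, and the labels do not say whether a manipulated group was 1 clone or a pool.

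AP-1 is a dimer of basic leucine zipper proteins that binds DNA as a transcription factor. FOS proteins cannot pair with each other and pair mainly with JUN proteins, whereas JUN proteins also pair among themselves and with ATF and BATF relatives. Several of the genes are immediate-early genes, whose short-lived transcripts rise quickly after serum, growth factors or stress through MAP kinases, serum response factor and CREB or ATF factors at their promoters. In squamous epithelium, AP-1 takes part in proliferation, differentiation and wound repair.

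Values are FPKM as deposited, a level per kilobase of gene length, and 3 values in a row follow the order of replicates 1, 2 and 3. Changes are differences in mean log2(FPKM + 1) from limma-trend, with a standard error (SE) and a two-sided p adjusted over all genes tested. A gene was called at an adjusted p under 0.05. Libraries held 16.3 M to 19.6 M reads. The targeted gene, CDCA7, went from 19.9 ± 3.61 to 53.9 ± 8.03 FPKM (SD, n = 3) with overexpression and from 26.2 ± 1.06 to 9.41 ± 0.670 FPKM with shCDCA7. Squamous markers were present, with 10 of 10 at 1 FPKM or more in every KYSE180 library and 9 of 10 in every KYSE150 library. The summed level of 8 fibroblast markers was at most 5.51 FPKM, that of 8 leukocyte markers at most 1.92 and that of 6 endothelial markers at most 1.62. The library labelled shCDCA7 replicate 2 stood apart, with 11.2% of its reads from mitochondrial genes against 5.20% and 5.73% in the other shCDCA7 libraries. The KYSE150 changes of members in the main fit, counts of called genes and the FOS family sum are therefore given with and without it. Median changes, ratios of means and counts of groups that do not overlap are given only with it. Mitochondrial reads took 4.76% to 6.38% in KYSE180 controls, 7.97% to 8.65% with overexpression and 4.03% to 4.15% in KYSE150 controls, and their part in the results was not tested. In bulk RNA, fewer cells that express a gene and less RNA per cell cannot be told apart.

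The stretches before the start sites are shown because FOS and JUN genes are known targets of factors that bind TGACGT and its relatives. RefSeq windows on GRCh38.p14 of 300 bases, from 250 before the start to 50 after it, were matched for 8 of the 10 genes, with 2 windows each for ATF3 and MAFF, and those of FOSL1 and BATF3 are not shown. The forms searched, on both strands, were TGACTCA, the core AP-1 site, TGACGT, the short form of a CREB and ATF site, whose palindrome TGACGTCA holds it on each strand, and TGACATCA, a mixed form. The CArG box, which serum response factor binds, was searched as well. TGACATCA is in 2.61% of all 35116 windows, TGACGT in 7.98%, TGACTCA in 4.95% and a CArG box in 1.29%. The lines give 30 bases each, 5′ to 3′ on the strand of the gene, with the matched letters in capitals (ACGTCA is TGACGT read on the other strand).
JUN, chr1:58784096-58784125, minus strand: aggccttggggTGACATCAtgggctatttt
ATF3, chr1:212565273-212565302, plus strand: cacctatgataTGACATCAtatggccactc
FOS, chr14:75278752-75278781, plus strand: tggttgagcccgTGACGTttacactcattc
FOSB, chr19:45467924-45467953, plus strand: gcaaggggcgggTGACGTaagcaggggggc
MAFF, chr22:38201929-38201958, plus strand: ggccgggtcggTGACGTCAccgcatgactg
FOSL2, chr2:28392780-28392809, plus strand: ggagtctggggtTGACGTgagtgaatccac
JUND, chr19:18281804-18281833, minus strand: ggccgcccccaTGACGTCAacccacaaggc
JUND, chr19:18281692-18281721, minus strand: tgcaaatgagcgACGTCAcccgcacccaat

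Counted from the start site, the match in JUN begins at base -67, in FOSL2 at -66, in FOS at -64, in FOSB at -60 and in MAFF at -54. The match in ATF3 begins farther out, at -123, and those in JUND at -200 and -87. FOSL2 was the only gene of the 8 with TGACTCA in its window, at bases 5 to 11 after the start. No window of the 8 genes held a CArG box, and the second windows of ATF3 and MAFF held none of the forms. Bases outside these windows were not searched, so a CArG box or another form farther from the start would be missed. The matches in JUN and MAFF and the TGACTCA of FOSL2 lie in an annotated exon. JUNB had none of the forms in its window, and its 120 bases before the start are given for comparison (chr19:12791366-12791485, plus strand).
JUNB: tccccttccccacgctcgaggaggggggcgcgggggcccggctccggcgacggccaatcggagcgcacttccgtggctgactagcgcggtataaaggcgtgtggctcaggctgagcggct
Among genes called higher with CDCA7 overexpression, FOS, FOSB and JUN hold a form within 70 bases of the start, and JUNB holds none in its window. MAFF and FOSL2, which were not called there, also hold a form within 70 bases. Whether the forms bear on the changes was not tested. A match is a description of the letters and not evidence of binding.

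In native cells the lines differed most in FOSL1, the FRA1 protein, a FOS family member that lasts longer than FOS and is known for its part in carcinoma invasion. FOSL1 was at 6.85, 12.3 and 8.76 FPKM in KYSE180 controls and at 91.6, 87.8 and 85.2 FPKM in KYSE150 controls. Every KYSE150 library was far above every KYSE180 library, the ratio of means was 9.49, and the difference of KYSE180 minus KYSE150 was -3.15 (SE 0.24, adjusted p = 4.83e-07). ATF3, a stress-induced factor that pairs with JUN proteins, was at 3.59, 4.57 and 6.87 FPKM in KYSE180 controls and at 23.8, 23.9 and 23.8 FPKM in KYSE150 controls. Those groups were also far apart (ratio 4.76, log2 -2.08, SE 0.17, adjusted p = 9.16e-07). BATF3, known best as a factor of dendritic cells, went the other way, with 2.27, 2.76 and 1.61 FPKM in KYSE180 and 0.362, 0.171 and 0.258 FPKM in KYSE150 (ratio 8.40, log2 1.33, SE 0.15, adjusted p = 1.96e-05). In KYSE150 that is 21, 9 and 14 reads, so the level of BATF3 there is known only roughly. The 1 added before the log shrinks a log2 difference at such low levels. Over the 20 alternatives the difference of BATF3 ran from 1.21 to 3.04. BATF3 and ATF3 lie 65.6 kb apart on chromosome 1.

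Of the 10 genes, 2 were called higher and 4 lower in KYSE180 controls, where 33.4% and 24.6% of all 17088 genes tested were called higher and lower. A share of this size is what the lines show across the whole table. FOSL2, the FRA2 protein, was the other gene called higher, by 0.40 (SE 0.11, adjusted p = 0.00718), at 17.9 ± 1.95 against 13.2 ± 0.491 FPKM. MAFF, a small MAF protein that binds DNA but has no activation domain, was called lower by -1.16 (SE 0.35, adjusted p = 0.0148), at 3.40 ± 2.10 against 8.15 ± 0.642 FPKM. FOSB was called lower by -1.13 (SE 0.40, adjusted p = 0.0313), although KYSE180 control replicate 3, at 6.09 FPKM, lay within the KYSE150 range of 5.07 to 6.35. The MAFF and FOSB calls were lost without KYSE180 control replicate 1 or without replicate 2, and the FOSB call also without any 1 KYSE150 control and with no filter on low reads.

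The other genes of the family were not called between the native lines. FOS differed by -0.46 (adjusted p = 0.314), JUN by 0.019 (adjusted p = 0.961), JUNB by 0.10 (adjusted p = 0.828) and JUND by 0.31 (adjusted p = 0.359). For JUN and JUNB even the direction is not fixed: it turned under removal of a GC trend for both and under other scalings for JUN.

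JUNB, which restrains JUN in many settings, had the highest level of the 10 genes in all 4 groups. In KYSE180 controls it averaged 135 FPKM, above 98.7% of the genes tested, followed by JUND, JUN and FOS at 56.2, 39.6 and 30.6 FPKM, whose ranges overlap from each to the next. FOSL2 at 17.9 FPKM came next, with a range overlapping that of FOS, and FOSL1 at 9.29 FPKM lay apart from FOSL2. ATF3, MAFF, FOSB and BATF3 followed between 5.01 and 2.21 FPKM, each overlapping the gene before it. In KYSE150 controls the order was JUNB at 121, FOSL1 at 88.2, JUND at 45.1, FOS at 38.6, JUN at 37.4, ATF3 at 23.8, FOSL2 at 13.2, MAFF at 8.15, FOSB at 5.89 and BATF3 at 0.264 FPKM. Only FOS and JUN overlapped there, so FOSL1 was above JUND, FOS and JUN in every KYSE150 control, and it was below them in every KYSE180 control.

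**Figure D1:**
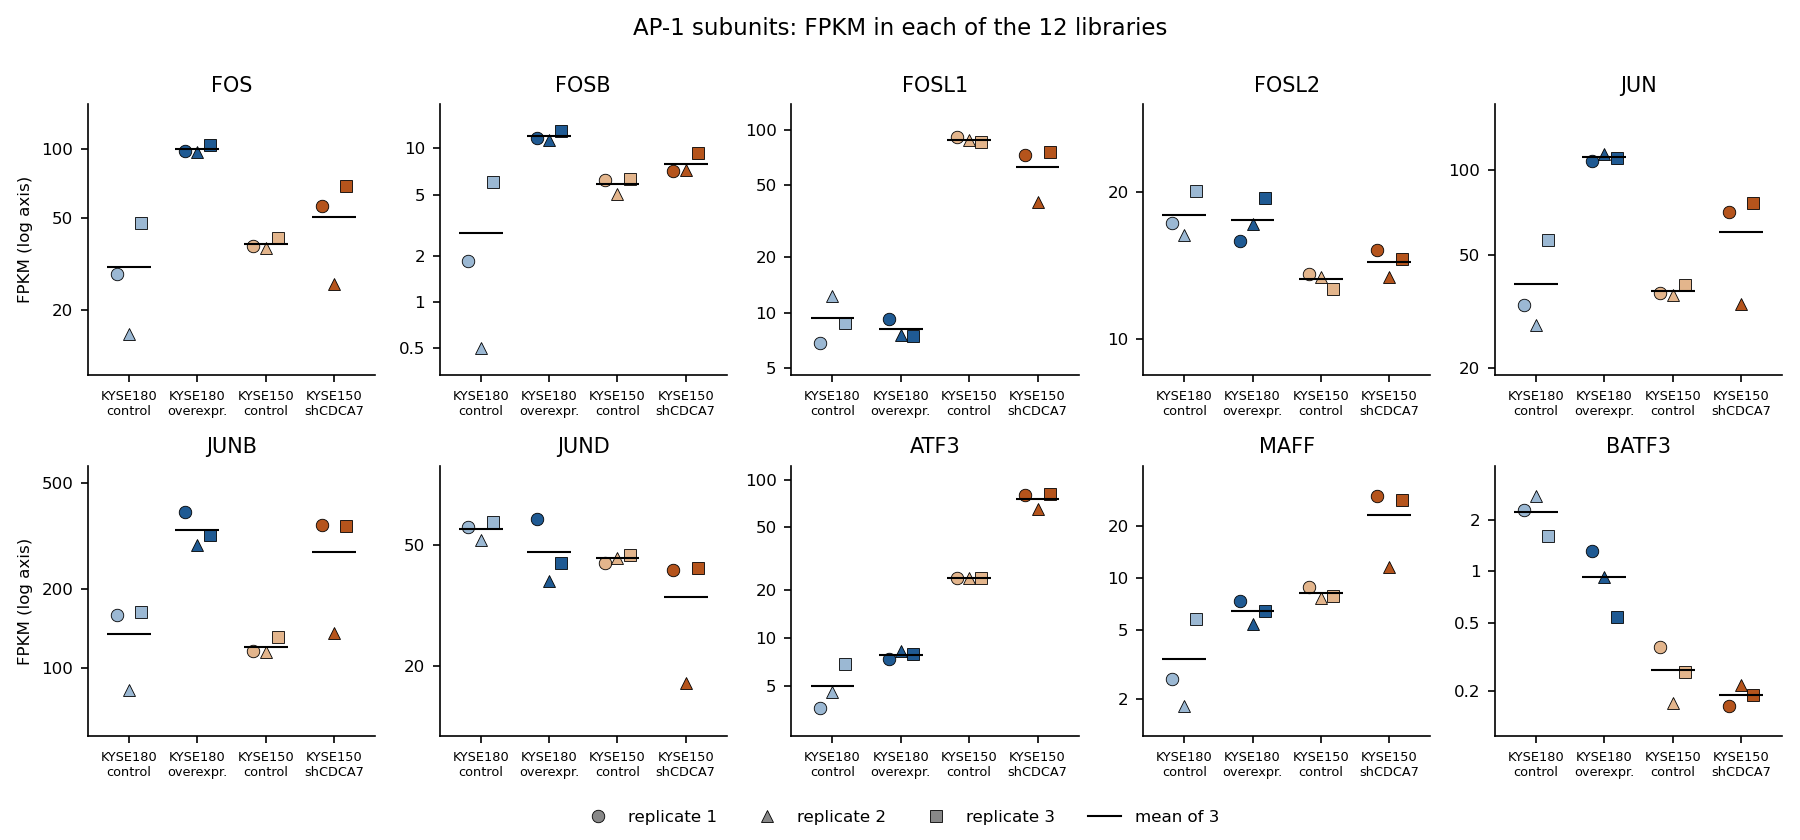
FPKM of each gene (vertical log axis, its own scale in each panel) in the 12 libraries by group, with marker shapes for replicates 1 to 3 and a line at the mean of 3. FOS, FOSB, JUN and JUNB lie higher in all 3 overexpressing libraries than in any KYSE180 control, and shCDCA7 replicate 2 is the lowest of its group for 8 of the 10 genes.

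With CDCA7 overexpression in KYSE180, FOS, FOSB, JUN and JUNB rose, and no member was called lower. BATF3 was lower in all 3 overexpressing libraries, with an adjusted p just above the threshold. These are 4 of 10 genes called higher, where 4.65% of all 15944 genes tested were called higher and 4.43% lower. The members were chosen with earlier results of these data known, so here and in KYSE150 the shares are only a description. The median change of the 10 genes was 0.72, against -0.0049 over all genes tested. Groups did not overlap for 5 of the 10 genes with overexpression higher (17.7% of all genes) and for BATF3 with overexpression lower (17.4% of all genes).

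FOS, the best known immediate-early member, was at 28.6, 15.6 and 47.6 FPKM in control libraries, against 97.7, 96.5 and 104 FPKM with overexpression. The controls were spread over a wide range, the overexpressing libraries lay close together, and the lowest of them was well above the highest control. FOS rose by 1.80 (SE 0.34, adjusted p = 0.0267; ratio of means 3.25). FOSB, its close paralogue with the lowest level of the FOS family in these controls, was at 1.87, 0.504 and 6.09 FPKM in control libraries, from 178, 52 and 667 reads, against 11.7, 11.4 and 12.9 FPKM with overexpression. Control replicate 2 had very little FOSB and control replicate 3 came closest to the overexpressing cells without reaching them. FOSB rose by 2.06 (SE 0.48, adjusted p = 0.0401; ratio of means 4.26).

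The other FOS family members were not called. FOSL1 was at 6.85, 12.3 and 8.76 FPKM in control libraries, against 9.27, 7.51 and 7.48 FPKM with overexpression, with overlapping groups and a difference of -0.15 (SE 0.20, adjusted p = 0.648). FOSL2 was at 17.3, 16.3 and 20.1 FPKM and then at 15.8, 17.2 and 19.4 FPKM, also overlapping (-0.033, SE 0.13, adjusted p = 0.891). A p above the threshold does not show that these genes stayed the same.

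JUN, the founding JUN protein and a target of JUN N-terminal kinase, was at 33.6, 28.4 and 56.8 FPKM in control libraries, against 108, 114 and 111 FPKM with overexpression. All overexpressing libraries were near each other and far above the highest control, replicate 3. JUN rose by 1.52 (SE 0.23, adjusted p = 0.0180; ratio of means 2.80). JUNB was at 159, 83.2 and 163 FPKM in control libraries, against 388, 293 and 319 FPKM with overexpression. The groups were apart, with control replicate 2 lowest, and JUNB rose by 1.35 (SE 0.27, adjusted p = 0.0307; ratio of means 2.47). JUND, the JUN protein found most evenly across tissues and growth states, was at 57.3, 51.8 and 59.6 FPKM in control libraries, against 60.7, 38.2 and 43.5 FPKM with overexpression, and its groups overlapped (-0.26, SE 0.18, adjusted p = 0.351).

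ATF3, MAFF and BATF3 were not called in KYSE180. ATF3 was at 3.59, 4.57 and 6.87 FPKM in control libraries, against 7.39, 8.23 and 7.95 FPKM with overexpression, just apart (0.60, SE 0.20, adjusted p = 0.0926). MAFF was at 2.59, 1.82 and 5.79 FPKM and then at 7.35, 5.45 and 6.44 FPKM, and control replicate 3 lay inside the overexpressing range (0.85, SE 0.30, adjusted p = 0.111). BATF3 was at 2.27, 2.76 and 1.61 FPKM and then at 1.32, 0.925 and 0.540 FPKM, lower in all 3 overexpressing libraries, with an adjusted p of 0.0520 (log2 -0.74, SE 0.19). BATF3 passed the threshold in 5 of 15 alternatives, among them the fit of all 12 libraries (adjusted p = 0.00952).

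Control replicate 3 was the highest control for 8 of the 10 genes and control replicate 2 the lowest for 7. Without control replicate 3, ATF3 (0.81, adjusted p = 0.0187) and MAFF (1.21, adjusted p = 0.0133) were called higher and BATF3 lower (-0.88, adjusted p = 0.0298) besides the 4 genes. Calls over the whole table also went up in that fit, to 1195 higher and 1140 lower of 15944 genes, against 741 and 706. Without control replicate 1, or without overexpression replicate 1, 2 or 3, none of the 10 genes was called by limma-trend, and over the whole table the calls fell from 1447 to 87, 22, 209 and 19. In those fits 5 to 7 of the 10 genes had an unadjusted p under 0.05. None was called with no filter on low reads either, where 7 had an unadjusted p under 0.05. With 0.1 added in place of 1, FOSB had a larger change but lost its call (2.64, adjusted p = 0.0516), and the other 3 kept theirs. limma-voom, run with all 6 libraries, called the same 4 genes higher and BATF3 lower. Over the whole table it called 945 genes higher and 886 lower. The sizes moved less: without 1 library the change of FOS ran from 1.40 to 2.18, of FOSB from 1.53 to 2.65, of JUN from 1.32 to 1.81 and of JUNB from 1.04 to 1.52.

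**Figure D2:**
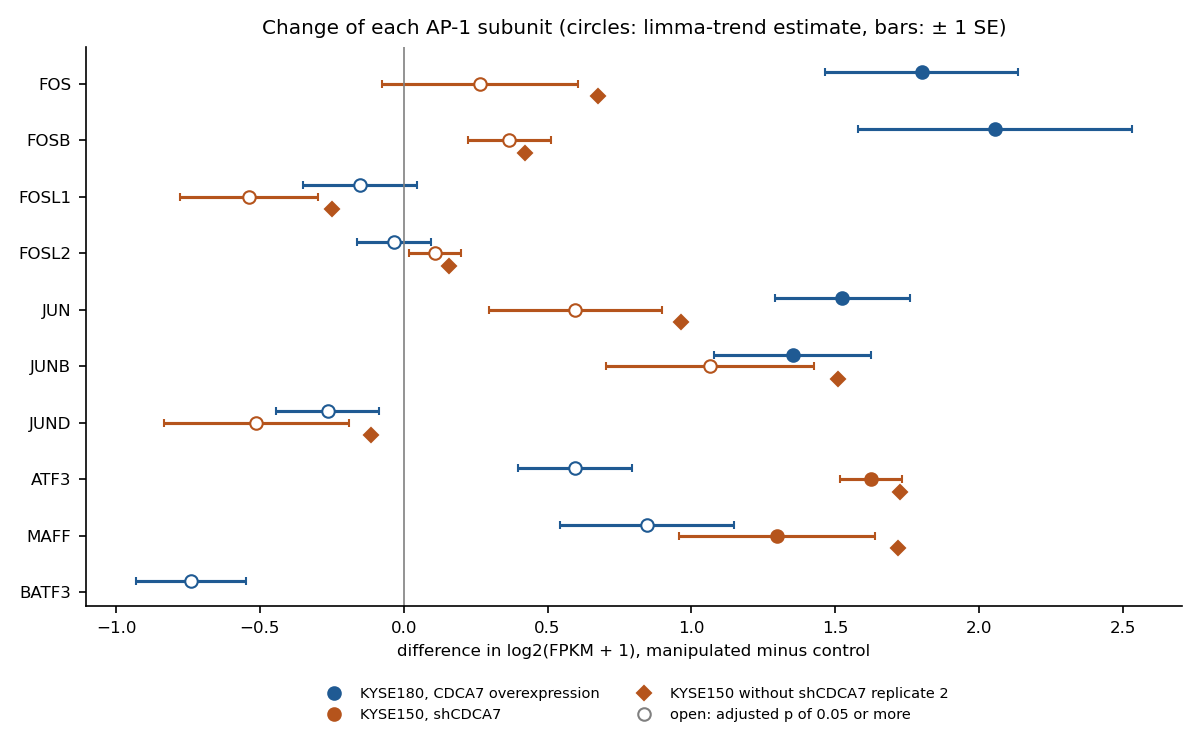
Difference in log2(FPKM + 1) of manipulated minus control libraries for each gene (horizontal axis): circles are limma-trend estimates with bars of 1 SE, diamonds are KYSE150 without shCDCA7 replicate 2, and filled symbols passed an adjusted p of 0.05. FOS, FOSB, JUN and JUNB are filled for KYSE180, and ATF3 and MAFF for KYSE150, where leaving out replicate 2 fills all 9 genes tested. BATF3 was not tested in KYSE150.

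With shCDCA7 in KYSE150, ATF3 and MAFF rose and no other member was called. These are 2 of 9 genes tested, where 10.0% of all 14342 genes were called higher and 9.86% lower. BATF3, with 7 to 21 reads in each KYSE150 library, did not pass the filter on low reads. The median change of the 9 genes was 0.37, against 0.0020 over all genes tested. Groups did not overlap for 4 of the 9 genes with shCDCA7 higher (25.3% of all genes) and for FOSL1 and JUND with shCDCA7 lower (22.5% of all genes).

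ATF3 was at 23.8, 23.9 and 23.8 FPKM in control libraries, against 80.3, 65.5 and 82.0 FPKM with shCDCA7. The controls were nearly equal and every shCDCA7 library was far above them, replicate 2 included. ATF3 rose by 1.62 (SE 0.11, adjusted p = 0.00166; ratio of means 3.19), and by 1.73 without replicate 2 (adjusted p = 5.52e-06). MAFF was at 8.88, 7.70 and 7.86 FPKM in control libraries, against 29.8, 11.6 and 28.2 FPKM with shCDCA7. Replicate 2 was the lowest shCDCA7 library and still above all controls. MAFF rose by 1.30 (SE 0.34, adjusted p = 0.0425; ratio of means 2.85), and by 1.72 without replicate 2 (adjusted p = 1.40e-05). The MAFF call was lost without any 1 of the other 5 libraries (adjusted p from 0.0964 to 0.145).

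The JUN family was divided by replicate 2. JUNB was at 116, 115 and 132 FPKM in control libraries, against 347, 136 and 344 FPKM with shCDCA7. Replicates 1 and 3 were far above the controls and replicate 2 only just above, so that JUNB was not called (1.07, SE 0.36, adjusted p = 0.0834), and without replicate 2 it was (1.51, adjusted p = 1.73e-05). JUN was at 36.8, 36.2 and 39.2 FPKM in control libraries, against 71.4, 33.7 and 76.5 FPKM with shCDCA7. Replicate 2 was below every control and the other shCDCA7 libraries well above (0.60, SE 0.30, adjusted p = 0.205, and 0.97 without replicate 2, adjusted p = 3.10e-05). JUND was at 43.7, 45.3 and 46.4 FPKM and then at 41.2, 17.6 and 42.0 FPKM, lower in all 3 shCDCA7 libraries and by far the lowest in replicate 2 (-0.51, SE 0.32, adjusted p = 0.295, and -0.11 without it, adjusted p = 0.0469).

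In the FOS family, FOS was at 37.7, 37.0 and 41.1 FPKM in control libraries, against 56.2, 25.9 and 68.8 FPKM with shCDCA7. Again replicate 2 was below the controls and the others above (0.26, SE 0.34, adjusted p = 0.608, and 0.68 without replicate 2, adjusted p = 0.000748). FOSB was at 6.25, 5.07 and 6.35 FPKM and then at 7.17, 7.20 and 9.35 FPKM, a small gap between the groups with replicate 2 level with replicate 1 (0.37, SE 0.14, adjusted p = 0.117, and 0.42 without replicate 2, adjusted p = 0.0244). FOSL1 was at 91.6, 87.8 and 85.2 FPKM and then at 72.7, 40.0 and 75.4 FPKM. It was lower in all 3 shCDCA7 libraries (-0.54, SE 0.24, adjusted p = 0.159), and without replicate 2 the difference was smaller and called (-0.25, adjusted p = 0.00288). FOSL2 was at 13.6, 13.4 and 12.7 FPKM and then at 15.2, 13.4 and 14.6 FPKM, with overlapping groups (0.11, SE 0.091, adjusted p = 0.425, and 0.16 without replicate 2, adjusted p = 0.0320).

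Without replicate 2, 7 of the 9 genes were called higher and FOSL1 and JUND lower, where 29.5% of all genes were called higher and 26.1% lower. The count of the family therefore rests on that library, and so does the count over the whole table, 2854 with it and 7982 without it. Relative to the mean of replicates 1 and 3, replicate 2 held 0.395 of the FPKM of JUNB, 0.399 of MAFF, 0.414 of FOS, 0.423 of JUND, 0.456 of JUN and 0.541 of FOSL1. The ratio was 0.807 for ATF3, 0.871 for FOSB, 0.899 for FOSL2 and 1.22 for BATF3.

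The 6 members of which replicate 2 held the smallest shares had 56.7% to 69.7% GC in their transcripts, and the other 4 had 50.5% to 58.1%. GC content was 69.7% for JUND, 64.9% for JUNB, 60.2% for MAFF, 60.1% for FOSL1, 58.5% for FOS and 56.7% for JUN, and it was 50.5% for ATF3, 51.5% for BATF3, 52.9% for FOSL2 and 58.1% for FOSB. Over all genes tested, the median log2 difference of replicate 2 from replicates 1 and 3 was 0.35 for 1549 genes under 40% GC, 0.0036 for 2318 genes of 50% to 55%, -0.50 for 1683 genes of 60% to 65% and -0.91 for 436 genes of 65% or more. Against the band of its own GC content, the difference of 6 of the 10 genes was below the lower quartile: JUNB with -1.33, MAFF with -1.25, FOS with -1.23, JUN with -1.11, FOSL1 with -0.87 and ATF3 with -0.30. With each library's GC trend removed, 13.9% of all 14336 genes were called higher in KYSE150 and 13.3% lower, and 4 of the members were called higher: ATF3 (1.63, adjusted p = 0.000980), MAFF (1.47, adjusted p = 0.00758), JUNB (1.34, adjusted p = 0.00463) and FOSB (0.51, adjusted p = 0.0332).

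**Figure D3:**
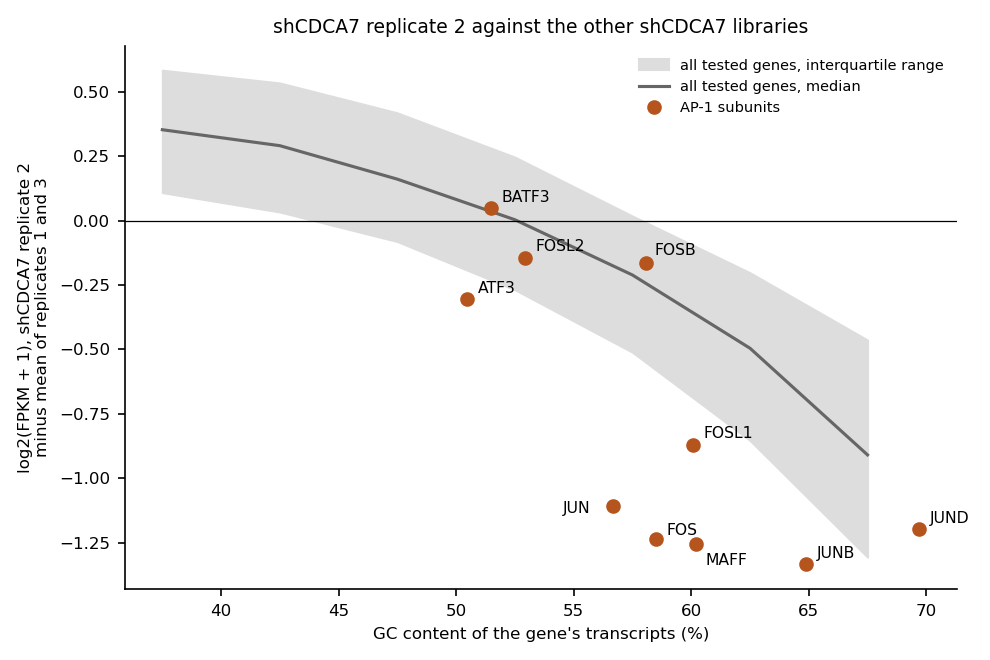
Difference in log2(FPKM + 1) of shCDCA7 replicate 2 from the mean of replicates 1 and 3 (vertical axis) against GC content in percent (horizontal axis): the line and band are the median and interquartile range of all genes tested in KYSE150, the points the AP-1 genes. The median falls from 0.35 to -0.91 with rising GC content, and 6 of the 10 points lie below the band, JUN, FOS, MAFF and JUNB by the most.

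The change with overexpression and the change with shCDCA7 were compared in a fit of all 12 libraries, in which 2.87% of 17088 genes were called higher and 2.70% lower for the difference of the changes. Each manipulation was made in its own line, so the manipulations cannot be told apart here from the lines. ATF3 alone among the 10 genes was called, with a change smaller by 1.03 on the log2 scale in KYSE180 than in KYSE150 (difference -1.03, SE 0.24, adjusted p = 0.0311). FOS and FOSB, which rose in KYSE180 and were not called in KYSE150, are not shown to differ between the manipulations (1.54, SE 0.53, adjusted p = 0.116 and 1.69, SE 0.57, adjusted p = 0.111). The same holds for JUN (0.93, adjusted p = 0.213), for JUNB (0.29, adjusted p = 0.781) and for MAFF (-0.45, adjusted p = 0.643). Without shCDCA7 replicate 2, where 4.73% of genes were called higher and 4.38% lower, ATF3 was again the 1 member called (-1.13, adjusted p = 0.0180). The differences were then 1.12 for FOS, 1.63 for FOSB, 0.56 for JUN and -0.87 for MAFF, and that of JUNB changed sign to -0.16. The 6 genes called in either line had a positive difference in both lines, although that of FOS in KYSE150 was -0.013 without shCDCA7 replicate 3.

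Shares of the summed FPKM show which gene led each family. The summed FPKM of the FOS family was 60.6 ± 19.6 in KYSE180 controls and 137 ± 5.91 with overexpression, and 146 ± 2.94 in KYSE150 controls and 135 ± 43.1 with shCDCA7, or 151 and 168 without replicate 2. FOS made up 48.3% ± 11.9 of that sum in KYSE180 controls (34.9% to 57.6%) and 72.6% ± 0.277 with overexpression. FOSL1 made up 60.4% ± 1.57 in KYSE150 controls (58.6% to 61.4%) and 46.4% ± 1.61 with shCDCA7 (44.8% to 48.0%), while FOS went from 26.5% ± 1.61 to 36.0% ± 5.61. The native lines thus hold FOS families of different make-up, with FOSL1 first in every KYSE150 control and at 16.9% ± 9.20 in KYSE180 controls. FOS was first in KYSE180 control replicates 1 and 3, and in replicate 2 FOSL2, at 36.5%, was slightly above FOS.

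In the JUN family both manipulations went with a smaller share of JUND and a larger share of JUNB. JUND made up 25.3% ± 5.56 of the summed FPKM in KYSE180 controls and 9.56% ± 1.22 with overexpression, and 22.2% ± 0.832 in KYSE150 controls and 9.13% ± 0.205 with shCDCA7. JUNB made up 57.6% ± 6.35 and then 67.6% ± 1.91 in KYSE180, and 59.4% ± 1.06 and then 74.2% ± 1.42 in KYSE150. The groups did not overlap for either share in either line, replicate 2 of shCDCA7 included, for which JUND was 9.36% and JUNB 72.7%. Shares of a sum depend on each other, so a smaller share of JUND does not show by itself that JUND fell. The FPKM of JUND was not called in either line with all libraries in the fit. With 3 libraries against 3 an exact two-sided permutation test cannot give a p below 0.1, so the shares are given as a description.

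**Figure D4:**
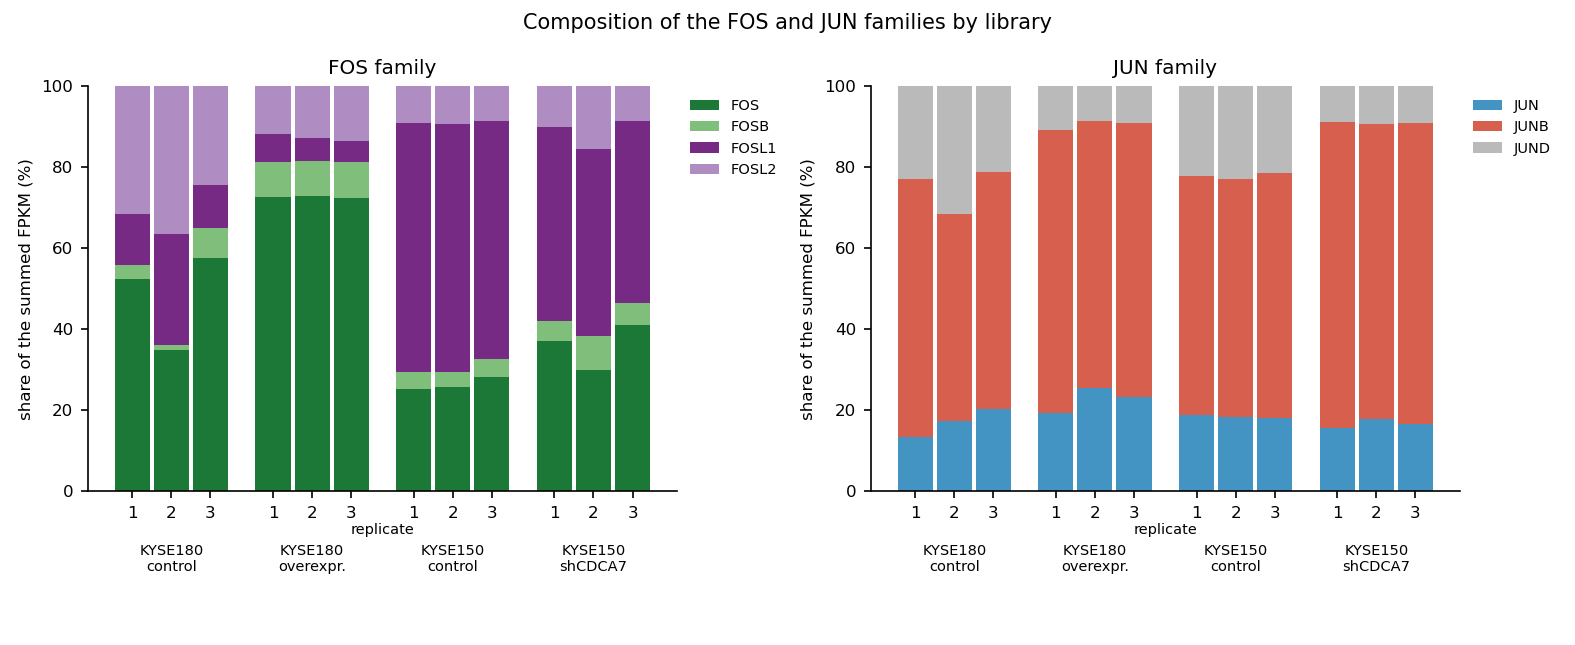
Share of the summed FPKM of the FOS family (left) and JUN family (right) taken by each gene, in percent, for each library by group. FOSL1 takes 58.6% to 61.4% in KYSE150 controls, and JUND takes less in every manipulated library than in every control of its line.

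Fixed lists, also chosen with earlier results of these data known, describe the surroundings of AP-1. Their counts stand beside 4.65% of all genes called higher and 4.43% lower in KYSE180, and 10.0% and 9.86% in KYSE150. The first holds 39 other leucine zipper genes of the ATF, CREB, MAF, CEBP and related families. In KYSE180, 5 of 34 tested were higher and 0 lower, among them DBP, a clock output factor (3.62 ± 1.03 to 18.1 ± 6.15 FPKM, 2.02, adjusted p = 0.0104), and DDIT3, the stress factor CHOP (8.61 ± 4.56 to 28.5 ± 5.07 FPKM, 1.70, adjusted p = 0.0238). In KYSE150, 8 of 32 were higher and 2 lower. NFIL3, a repressor of the same superfamily, rose from 13.0 ± 0.912 to 31.8 ± 0.685 FPKM (1.23, adjusted p = 0.00181), DDIT3 from 11.2 ± 0.575 to 26.3 ± 9.21 FPKM (1.09, adjusted p = 0.0331) and XBP1, a factor of the unfolded protein response, from 21.0 ± 1.62 to 36.9 ± 0.495 FPKM (0.79, adjusted p = 0.00437). TEF fell from 4.83 ± 0.168 to 2.82 ± 0.725 FPKM and BATF2 from 0.401 ± 0.0961 to 0.125 ± 0.0701 FPKM. The median change of the list was 0.17 in KYSE180 and 0.21 in KYSE150.

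The second list holds 41 genes upstream of AP-1: RAS, RAF and MAP kinase genes, serum response factor and its cofactors, ubiquitin ligases for JUN and phosphatases that switch MAP kinases off. In KYSE180, 4 of 41 were higher and 0 lower, and the 3 named by the rule are phosphatases. DUSP6 went from 0.835 ± 0.452 to 4.95 ± 0.502 FPKM (1.73, adjusted p = 0.00906), DUSP1 from 6.80 ± 1.48 to 19.6 ± 1.60 FPKM (1.41, adjusted p = 0.00860) and DUSP5 from 2.07 ± 0.992 to 5.42 ± 0.151 FPKM (1.11, adjusted p = 0.0283). In KYSE150, 6 of 41 were higher and 1 lower. DUSP5 rose there from 12.1 ± 1.20 to 32.3 ± 3.75 FPKM (1.34, adjusted p = 0.00272), DUSP1 from 8.50 ± 0.545 to 20.4 ± 3.92 FPKM (1.16, adjusted p = 0.00619) and MAP3K8, a kinase that activates the ERK and JNK pathways, from 1.24 ± 0.0360 to 4.51 ± 1.29 FPKM (1.27, adjusted p = 0.00850). MRTFB, a cofactor of serum response factor, fell from 3.20 ± 0.165 to 2.02 ± 0.374 FPKM. The median change was 0.072 in KYSE180 and 0.14 in KYSE150.

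The third list holds 40 genes reported as AP-1 targets in squamous or carcinoma cells. In KYSE180, 7 of 33 tested were higher and 0 lower, with a median change of 0.52. AREG, a ligand of the EGF receptor, went from 11.7 ± 12.3 to 45.0 ± 3.43 FPKM (2.29, adjusted p = 0.0462), and SPRR1A, a protein of the cornified envelope, from 0.471 ± 0.638 to 5.14 ± 1.60 FPKM (2.11, adjusted p = 0.0148). In KYSE150, 11 of 33 were higher and 3 lower, and the median was 0.23. PLAU, the urokinase plasminogen activator, rose from 17.9 ± 1.16 to 63.0 ± 16.1 FPKM (1.73, adjusted p = 0.00462), the cytokine IL1A from 19.1 ± 1.47 to 46.3 ± 5.20 FPKM (1.23, adjusted p = 0.00280) and the keratin KRT17 from 51.2 ± 3.36 to 122 ± 23.6 FPKM (1.22, adjusted p = 0.00630). Among targets that fell, the collagenase MMP1 went from 1.18 ± 0.158 to 0.401 ± 0.149 FPKM, CCND1, or cyclin D1, from 48.6 ± 1.78 to 33.4 ± 5.49 FPKM and filaggrin, FLG, from 0.521 ± 0.0139 to 0.169 ± 0.103 FPKM. Without shCDCA7 replicate 2 the counts in KYSE150 were 17 higher and 4 lower of 32 relatives, 18 and 8 of 41 upstream genes and 18 and 10 of 33 targets, where 29.5% of all genes were called higher and 26.1% lower. The 15 genes named from the lists in KYSE150 were called in the same direction without it (adjusted p from 7.66e-06 to 0.00577), with 0.806 to 1.29 times the log2 change. The KYSE180 counts share the dependence on single libraries described for the members, since only 19 to 209 genes of the whole table were called without control replicate 1 or any 1 overexpressing library. Of the squamous markers, 6 of 9 were called higher and 0 lower in KYSE150, or 8 higher and 1 lower without replicate 2. None of 10 was called in KYSE180, where their summed level was 2236 to 4085 FPKM in controls and 4516 to 5290 FPKM with overexpression. Their part in the target list, which shares KRT6A and KRT17 with them, was not tested.

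For each member the 2 genes with the most similar pattern were taken by Pearson's r of log2(FPKM + 1) over the 12 libraries, shCDCA7 replicate 2 included, after centring each line on its mean, among 8848 genes. The best of so many candidates is high by selection, and levels in shCDCA7 replicate 2 shifted with GC content, so r is a description without a p. Whether that shift raised any r was not tested. JUN was most like ASNS, asparagine synthetase (r = 0.99), and RHOB, a small GTPase (r = 0.98). ATF3 was most like ZBTB43 (r = 0.99) and PLAU (r = 0.98). FOS was most like MRC2 and CUL7 (both r = 0.97), FOSB like PDCD4 and AUH (both r = 0.96), and JUNB like CREBZF and AKAP17A (both r = 0.97). JUND was most like SORBS3 (r = 0.99) and BX255925.3 (r = 0.98), and MAFF like SPINT1 and NEU1 (both r = 0.98). FOSL1 was most like TMEM107 (r = 0.95) and the row named MIR621 (r = 0.94), and BATF3 like RER1 (r = 0.96) and MRPL21 (r = 0.95). FOSL2 had the lowest values, with ZBTB34 (r = 0.85) and C20orf96 (r = 0.84).

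Some members share sequence with a gene on the other strand, and the sources used here do not say whether counting used strand. FOSB overlaps ERCC1 (7.52 to 12.4 FPKM over the 12 libraries), JUNB overlaps HOOK2 (4.83 to 13.0 FPKM) and MAFF overlaps PLA2G6 (0.542 to 1.52 FPKM). FOSL2 overlaps FLJ31356 on the other strand and AC104695.3 on its own strand, inside an intron, and both stayed under 1 FPKM in every library. Reads of these pairs may not be fully separated, which bears most on the low FOSB values.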

How the data were processed

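RNA was measured in 12 libraries. The authors deposited 1 table of FPKM per gene and library, without naming the unit, and the tools are HISAT2 2.0.5 for alignment and DESeq2 1.20.0, per the submitters' processing notes. These give the mouse build mm10, whereas 58724 of 58735 genes match the positions of GENCODE 29 for human GRCh38. The sources used here name no counting tool. FPKM multiplied by gene length, and divided by a step fitted for each library, gives whole reads for 100% of values above 0 (tolerance 0.01 reads, checked on all but the highest values). The library sizes implied by these steps differ from the read totals, so the deposited values are not scaled to each library's own total. Recovered reads set the filter: 3 or more libraries with at least 10 reads, scaled to the median library, and 15 reads in all. Planned for normalised values, limma-trend (limma 3.58.1, R 4.3.3) was run on log2(FPKM + 1), with the 6 libraries of a line per fit, and all 12 for comparisons across lines. GC content is the mean over GENCODE transcripts. The fits were run on simulated reads of fixed dispersion, with no GC trend and no outlying library. That run does not measure error rates in these data. Groups come from the labels, which do not say that replicates are separate cultures, so p-values measure only their spread, which may be technical. Depth limits counting error only, and no molecular identifiers were used.

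The members and the gene lists were chosen with earlier results of these data known. All 10 members are named. From each list, up to 3 called genes per direction and line are named by size of change, and 2 genes per member by likeness (mean log2(FPKM + 1) of at least 2). Of the genes this rule names, 2 are not reported here. The alternatives were an added 0.1, other filters, library totals, TMM, limma-voom, all 12 libraries in 1 fit, a replicate block, removal of the GC trend and leaving out each library. List counts, named list genes and family sums without shCDCA7 replicate 2 were added after the data were seen.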

Additional observations from a re-analysis of the deposited data

Results flagged for a closer look

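The change of ATF3 differed between the manipulations by a test of the difference itself. Overexpression was done only in KYSE180 and the hairpin only in KYSE150, so a difference of manipulations cannot be told apart from a difference of lines. ATF3 went from 5.01 ± 1.68 to 7.86 ± 0.427 FPKM with CDCA7 overexpression in KYSE180 and from 23.8 ± 0.0400 to 75.9 ± 9.06 FPKM with shCDCA7 in KYSE150 (SD, n = 3). The first change minus the second was -1.03 on the log2 scale (SE 0.24, limma-trend adjusted p = 0.0311). The direction was the same in all 20 alternatives, with values from -1.21 to -0.82, and the difference passed the threshold in 7 of them, with adjusted p from 0.0148 to 0.0971. It passed without shCDCA7 replicate 2 (-1.13, adjusted p = 0.0180). Groups of 3 are too small for a test of single outlying libraries.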

How the results depend on the processing

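Over 685 values of members under alternatives, 597 kept their direction and their side of the threshold, 51 lost a call, 20 gained one and 17 changed sign. None of the 17 was a called value. ATF3 with shCDCA7 was called in all 15 alternatives, and FOSL1, FOSL2, ATF3 and BATF3 between the native lines in all 20. In KYSE180 the members called were 0 with no filter on low values and 0 to 7 without 1 library, against 4. The genes called in all were 3 with no filter, 2893 with all 12 libraries in 1 fit and 19 to 2335 without 1 library, against 1447. In KYSE150 the members called were 1 with no filter, library totals, TMM or a replicate block, 4 with the GC trend removed and 1 to 9 without 1 library, against 2. The genes called in all were 1554 with no filter and 545 to 7982 without 1 library, against 2854. For the difference of the manipulations, the members called were 0 with an added 0.1, no filter, library totals, limma-voom or a replicate block and 0 to 4 without 1 library, against 1. The genes called in all were 530 with no filter, 476 with limma-voom and 289 to 1711 without 1 library, against 952. Without 1 library the members called between the native lines ran from 4 to 6, against 6. With no filter more genes are tested, 31719 against 15944 in KYSE180, and the causes of these shifts were not tested.

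Same-numbered libraries did not deviate together (r from -0.076 to 0.052), and differently numbered ones ran from -0.084 to 0.11. With groups of 3, such values cannot settle whether the numbers pair the samples. With the replicate block the genes called in all were 603 in KYSE180, 1001 in KYSE150 and 211 for the difference, and BATF3 was called lower in KYSE180.

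Signs changed for FOSL2 with shCDCA7 (-0.14 with library totals), JUND in the difference of the manipulations (-0.065 with the GC trend removed), JUN between the native lines (-0.0020 with library totals, -0.054 with TMM, -0.070 with the GC trend removed) and JUNB between them (-0.030 with the GC trend removed). Without 1 library the range spanned 0 for FOSL1 (-0.33 to 0.048) and FOSL2 (-0.11 to 0.049) in KYSE180 and for FOS with shCDCA7 (-0.013 to 0.68). It also did for JUNB (-0.16 to 0.51) and JUND (-0.15 to 0.45) in the difference, and for JUN (-0.27 to 0.22) and JUNB (-0.070 to 0.41) between the native lines. Scaled to library totals, the median of all genes shifted to -0.08 in KYSE180 and -0.16 in KYSE150, and the calls divided into 502 higher and 1229 lower, and 776 and 3015, against 741 and 706, and 1440 and 1414. At 7 to 21 reads, the level of BATF3 in KYSE150 is limited by depth.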
